A study of Mus musculus with 24 samples.

Results

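Trp53, which encodes the tumour suppressor p53, and 9 genes that p53 is known to activate, Cdkn1a, Mdm2, Ccng1, Trp53inp1, Bbc3, Bax, Phlda3, Zmat3 and Aen, were followed through mouse embryonic fibroblasts (MEFs) in which AMPK was activated, MTOR was inhibited or AMPK was deleted. The 10 genes were taken by name from the 55487 genes of the count table, and all 10 passed the filter on low counts that left 15828 genes for testing. The cells were wild-type (WT) MEFs and MEFs labelled AMPK KO, in which, according to the methods of the study, Prkaa1 and Prkaa2, the genes of the catalytic AMPK subunits, are both disrupted. Cells of each genotype received the vehicle DMSO, MK-8722, a direct activator of AMPK, or torin1, an inhibitor of the kinase MTOR, with 4 libraries in each of the 6 groups. The WT libraries carry passage labels 12 to 15 and the AMPK KO libraries 16 to 19, with 1 library of each passage in each treatment. Genotype and passage range therefore cannot be told apart, while passage and treatment can. Whether the cells are primary or immortalised, and whether either population descends from a single clone, is not given in the sources used here. Nor are the age of the embryos and the length of the treatments before RNA was taken.

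The p53 protein is a transcription factor whose amount and activity are set mainly after translation. MDM2, itself a product of a p53 target gene, marks p53 for degradation, so that the pair forms a feedback loop. When DNA is damaged, ribosome assembly fails or oncogenes are active, p53 escapes MDM2 and activates genes that arrest the cell cycle, repair DNA or start apoptosis. Fibroblasts kept in culture are known to meet such a barrier as they are passaged, and cultures that continue to grow have often lost parts of the pathway. The kinases AMPK and MTOR are both described as acting on p53 or on the translation of its targets. The mRNA of Trp53 is thus no measure of p53 activity, and the transcripts of its targets are read as its output, although other factors act on each of them too. Whether p53 is intact in either population is not given in the sources used here, and its activity was not measured.

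The sites that p53 binds are made of half-sites of 10 bases, and a full site holds a pair of them. RefSeq promoters of GRCm38.p6, read over the 250 bases before each transcription start, were found for 8 of the 10 genes, with 12 starts in all. Zmat3 and Trp53inp1 were not matched. A match to the p53 half-site consensus stood in 6 of the 12 windows, in a window of 6 genes, against 7.13% of all 32851 promoter windows. A full site with at most 13 bases between its half-sites stood in 1 window, a Cdkn1a start, against 0.0639% of all windows. The consensus reads the same on both strands, so a single search covers both. The windows are printed from base -250 to base -26 before the start, with half-sites in capitals. Shown are the 3 genes with a match that were lower with torin1 in both genotypes and whose printed stretch lies outside the annotated gene. That of Aen overlaps it. The full windows of Cdkn1a and Ccng1 reach into the annotated gene near the start.
Cdkn1a, chr17:29090729-29090953, plus strand: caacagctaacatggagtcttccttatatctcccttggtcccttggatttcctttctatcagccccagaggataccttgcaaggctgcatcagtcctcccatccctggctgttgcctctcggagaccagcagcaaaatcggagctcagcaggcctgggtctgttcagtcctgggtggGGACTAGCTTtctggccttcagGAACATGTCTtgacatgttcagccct
Mdm2, chr10:117710784-117711008, minus strand: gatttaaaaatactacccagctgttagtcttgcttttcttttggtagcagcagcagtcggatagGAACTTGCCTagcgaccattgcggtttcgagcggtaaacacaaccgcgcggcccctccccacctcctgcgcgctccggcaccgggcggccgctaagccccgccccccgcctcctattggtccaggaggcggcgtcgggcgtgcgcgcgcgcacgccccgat
Ccng1, chr11:40755312-40755536, minus strand: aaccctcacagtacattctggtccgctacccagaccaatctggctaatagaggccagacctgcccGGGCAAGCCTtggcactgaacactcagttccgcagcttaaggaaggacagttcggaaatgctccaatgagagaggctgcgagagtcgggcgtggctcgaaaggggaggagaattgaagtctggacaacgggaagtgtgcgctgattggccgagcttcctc
In Cdkn1a the half-sites GGACTAGCTT and GAACATGTCT began at bases -73 and -51, counted from the start. In Mdm2 the half-site GAACTTGCCT began at base -186, and in Ccng1 GGGCAAGCCT began at base -185. Single half-sites also began at base -201 in Bax, -121 in Aen and -75 in Trp53. For Cdkn1a and Aen these positions count from the starts at chr17:29090979 and chr7:78896058. Each of these genes had another start, at chr17:29093769 and chr7:78895927, whose window held no half-site. These are matches of letters in a short window, and binding of p53 was not measured.

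Libraries held between 26900240 and 34192685 counts, and no member had fewer than 79 counts in any library. RNA integrity numbers were 9.7 to 10. The fibroblast markers Col1a1 (319 to 4840 CPM, counts-per-million) and Vim (1470 to 5240 CPM) were high in every library, whereas Thy1 and Pdgfra, which also mark fibroblasts, reached no more than 2.28 and 6.49 CPM. Of the markers of other cell types, Adgre1 and Ptprc (blood) were at 0 in 24 and 21 libraries and Krt5 (epithelium) in 22. Cd68 (blood, 1.1 to 4.09 CPM), Epcam (0.389 to 4.08 CPM), Cdh1 (0.393 to 2.81 CPM) and Krt18 (0.0593 to 1.09 CPM), the last 3 epithelial, were counted in every library. So were the endothelial markers Kdr (0.772 to 8.41 CPM) and Pecam1 (0.0351 to 0.451 CPM) and the muscle marker Des (0.333 to 3.19 CPM). The targeted genes were still counted in the AMPK KO libraries, at a median of 72.8 CPM for Prkaa1 and 3.9 CPM for Prkaa2, against 81.1 and 5.33 CPM in WT (12 libraries each), so that these gene totals do not check the deletion. In bulk RNA, fewer cells that express a gene and less RNA of it per cell cannot be told apart. The labels do not say whether the libraries of a passage came from a shared culture, so p-values measure the spread between these libraries. A gene was called when its edgeR adjusted p, by the Benjamini-Hochberg method over all genes tested, was under 0.05 and its fold change at least 1.2.

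Trp53 had the highest level of the 10 genes. Per length, in TPM (transcripts-per-million), Trp53 (ENSMUSG00000059552, chr11:69580359-69591873) was present at 340 ± 41.2 TPM (SD over 24 libraries). Bax (ENSMUSG00000003873, chr7:45461697-45466898), whose protein opens the outer mitochondrial membrane in apoptosis, came next at 168 ± 19.1 TPM. Phlda3 (ENSMUSG00000041801, chr1:135766119-135769136), an inhibitor of AKT signalling, was at 60.2 ± 11.6 TPM and Mdm2 (ENSMUSG00000020184, chr10:117688875-117710758) at 48.8 ± 8.86 TPM, a difference within their spread over libraries. Cdkn1a (ENSMUSG00000023067, chr17:29090976-29100727), which encodes the cyclin-dependent kinase inhibitor p21, was at 36.9 ± 15.3 TPM, next to Aen (ENSMUSG00000030609, chr7:78895854-78911209), an exonuclease induced in apoptosis, at 36.4 ± 12.2 TPM. Ccng1 (ENSMUSG00000020326, chr11:40748552-40755311), whose product cyclin G1 brings a phosphatase to MDM2, was at 29.1 ± 8.79 TPM. Lower still were Bbc3 (ENSMUSG00000002083, chr7:16308393-16318205), which encodes the BH3-only protein PUMA, at 10.9 ± 2.51 TPM, and Zmat3 (ENSMUSG00000027663, chr3:32334792-32366014), an RNA-binding protein, at 8.22 ± 1.83 TPM. Trp53inp1 (ENSMUSG00000028211, chr4:11156431-11174379), a stress protein that acts with p53 and in autophagy, was the lowest at 1.52 ± 0.445 TPM. The spread over the 24 libraries was widest, relative to the mean, in Cdkn1a, whose levels ran from 13.6 to 63.7 TPM, and the highest Trp53 level was 391 TPM against a lowest of 242 TPM. Positions are those of GRCm38, and all 10 genes are annotated as protein-coding. Reads shared with other genes were few: the pseudogene Trp53-ps held 0.23% to 0.542% of the counts of Trp53, a gene that overlaps Bax at most 8.217 counts and a gene on the opposite strand of Cdkn1a at most 3 counts.

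**Figure D1:**
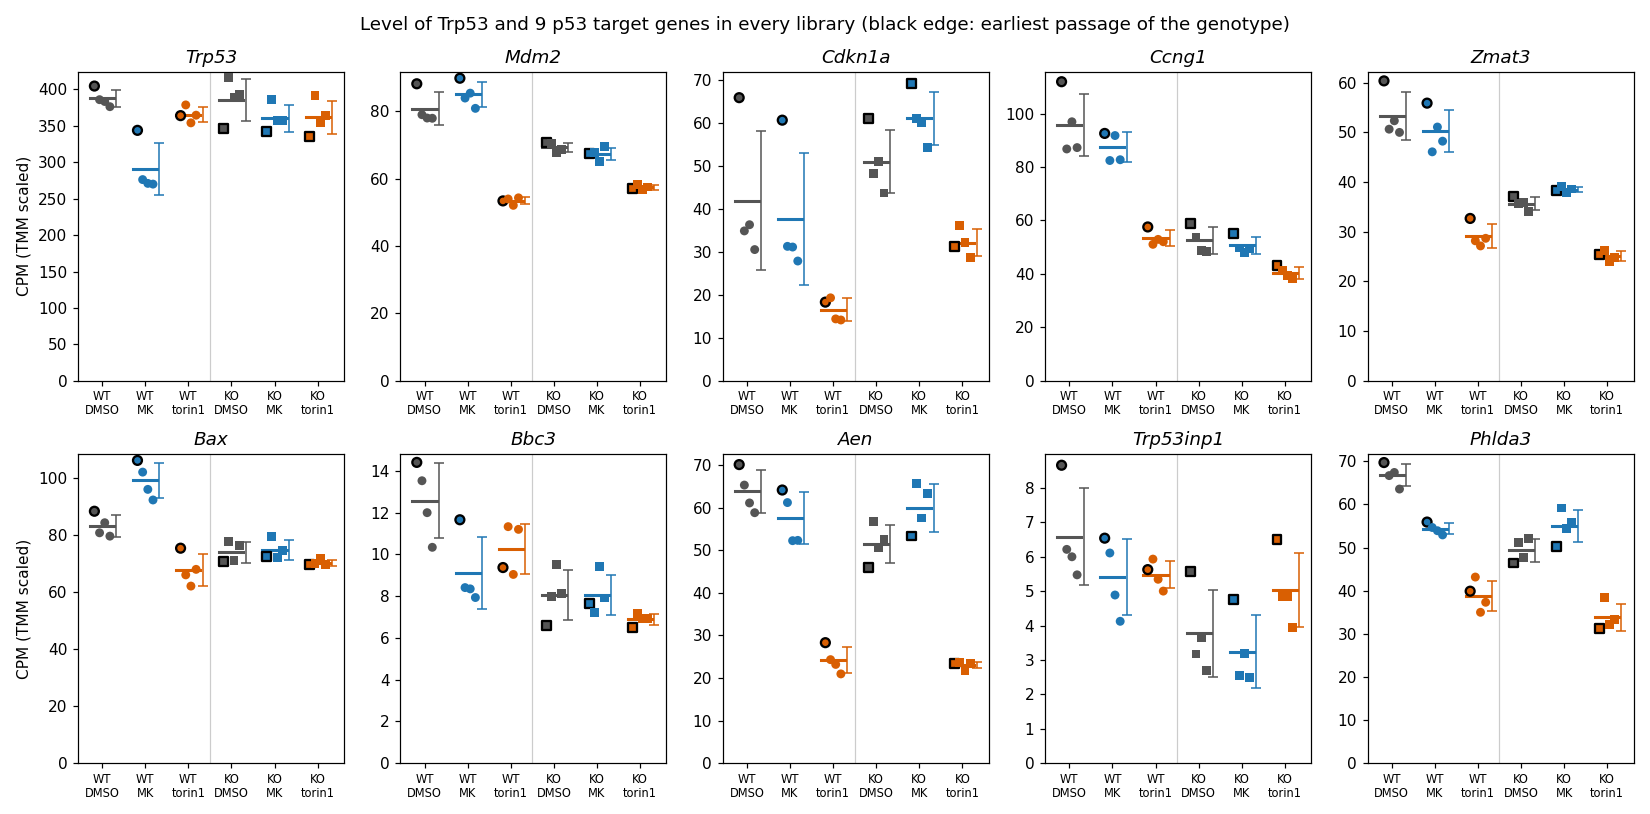
Level of each gene in every library in CPM (vertical axes, from 0), with groups along the horizontal axes, circles for WT, squares for AMPK KO (KO), grey for DMSO, blue for MK-8722 (MK) and orange for torin1. Horizontal bars are group means, vertical bars are 1 SD, and a black edge marks the earliest passage, which in Cdkn1a stands at 65.8 CPM in WT with DMSO above the other 3 libraries at 30.5 to 36.3 CPM.

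With torin1, most of the 9 targets fell and Trp53 itself was not called. In WT, 8 of the 10 genes were lower and 0 were higher, against 21.1% of all genes tested called lower and 26.6% called higher. In AMPK KO, 6 were lower and 0 higher, against 17.6% and 25.9% of all genes. The median log2 fold change of the 10 genes was -0.69 in WT and -0.32 in AMPK KO, beside 0.04 and 0.06 over all genes. Scaling by library size alone moved the median of all genes by 0.1 in WT and 0.062 in AMPK KO. It raised the share of calls that were higher from 55.8% to 67.5% in WT, and left 6 and 5 members lower. Of the 15828 genes tested, it left 2493 lower in WT and 2237 in AMPK KO, against 3336 and 2783 before. Summed levels of the markers of other cell types moved with torin1 too. In WT with DMSO and torin1 they were 1.4 to 2.41 and 3.1 to 5.24 CPM for 5 epithelial markers, 0.878 to 1.28 and 1.97 to 3.87 CPM for 4 endothelial markers, and 0.722 to 0.805 and 1.08 to 1.45 CPM for 3 muscle markers. Of the muscle markers, Myod1 and Myog were at 0 in 20 and 23 of all libraries, whereas Des was counted in every library. The sum of 4 blood markers, 1.79 to 2.41 CPM with DMSO, was at least 2.45 CPM with torin1, so that none of the 4 sums overlapped. In AMPK KO the epithelial (3.21 to 4.79 and 5.62 to 6.87 CPM), endothelial (1.57 to 2.1 and 2.25 to 3.07 CPM) and muscle sums (1.38 to 1.9 and 2.46 to 3.07 CPM) did not overlap either, while those of blood did. Their part in the changes was not tested.

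Cdkn1a and Aen had the largest changes with torin1 among the members. Cdkn1a in WT with DMSO was at 65.8, 34.9, 36.3 and 30.5 CPM from passage 12 to 15, and with torin1 at 18.3, 19.3, 14.4 and 14.1 CPM. Every torin1 library was below every DMSO library, with a log2 fold change of -1.34 (SE 0.22, adjusted p 1.43e-05 in edgeR), or -1.09 when the passage 12 libraries were left out. In AMPK KO its levels with DMSO were 60.9, 48.1, 50.9 and 43.7 CPM from passage 16 to 19, and 31.2, 36.2, 32.3 and 28.6 CPM with torin1. The groups again did not overlap, and the log2 fold change was -0.67 (SE 0.21, adjusted p 0.00941 in edgeR). Aen, the apoptotic exonuclease, fell from 70.2, 65.4, 61.2 and 58.9 CPM to 28.3, 24.3, 23.2 and 20.96 CPM in WT. The AMPK KO libraries went from 46.1, 56.8, 50.7 and 52.5 CPM to 23.4, 23.5, 21.8 and 23.4 CPM. Its log2 fold changes were -1.40 (SE 0.089, adjusted p 3.52e-12 in edgeR) and -1.16 (SE 0.088, adjusted p 1.3e-10 in edgeR). Aen thus fell to the same range of 21 to 28.3 CPM in the 8 torin1 libraries of both genotypes.

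The feedback and growth control genes Mdm2, Ccng1, Zmat3 and Phlda3 fell in both genotypes. Mdm2 in WT was at 88.1, 79.0, 78.0 and 77.9 CPM with DMSO and at 53.4, 53.9, 52.1 and 54.3 CPM with torin1, a log2 fold change of -0.60 (SE 0.04, adjusted p 8.06e-12 in edgeR). In AMPK KO it went from 67.8 to 70.6 CPM with DMSO to 56.7 to 58.2 CPM with torin1, a log2 fold change of -0.27 (SE 0.04, adjusted p 2.78e-06 in edgeR). The 4 torin1 values of Mdm2 had an SD of 0.979 CPM (WT) or 0.652 CPM (AMPK KO), the narrowest groups of this gene. Ccng1 was at 111.9, 86.7, 96.9 and 87.3 CPM with DMSO in WT and at 57.6, 51.1, 52.9 and 52.0 CPM with torin1, and its log2 fold change was -0.84 in WT and -0.37 in AMPK KO. Zmat3 in WT lay at 50.0 to 60.4 CPM with DMSO and 27.2 to 32.7 CPM with torin1, and in AMPK KO at 34.02 to 37.0 CPM and 24.1 to 26.2 CPM, log2 fold changes of -0.87 and -0.50. Phlda3 in WT lay at 63.6 to 69.7 CPM with DMSO and 35.0 to 43.2 CPM with torin1, and in AMPK KO at 46.4 to 52.0 CPM and 31.3 to 38.5 CPM, log2 fold changes of -0.78 and -0.54. None of these 4 genes had overlapping groups in either genotype, and the share of all genes without overlap was not counted.

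Of the apoptotic activators, Bax and Bbc3 were called in WT alone, and the difference between genotypes was called for neither. Bax fell from 79.5 to 88.2 CPM with DMSO to 62.0 to 75.3 CPM with torin1 in WT, a log2 fold change of -0.30 (SE 0.054, adjusted p 4.81e-05 in edgeR), which was -0.20 with library size alone and -0.23 without WT torin1 replicate 3, both under the fold threshold. In AMPK KO its log2 fold change was -0.07 (SE 0.054, adjusted p 0.261 in edgeR) and the groups overlapped. Bbc3 in WT was at 14.4, 13.5, 12.0 and 10.3 CPM with DMSO and at 9.37, 11.3, 9.04 and 11.2 CPM with torin1, an overlap of groups with a log2 fold change of -0.30 (SE 0.12, adjusted p 0.0422 in edgeR). This call was lost when any of WT DMSO replicate 4 or 2 or WT torin1 replicate 4 or 3 was left out, with adjusted p-values up to 0.175. Without AMPK KO DMSO replicate 3, Bbc3 was also called in AMPK KO, at -0.36, against -0.23 before. Trp53inp1 was not called in either genotype, with a log2 fold change of -0.27 (SE 0.21) in WT and 0.41 (SE 0.22) in AMPK KO. With passage as a block its value in AMPK KO was 0.43 (adjusted p 0.00096 in edgeR), a call in the direction opposite to the targets that fell, and 0.62 without AMPK KO DMSO replicate 3, also called.

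Trp53 itself was at 404.6, 385.9, 383.4 and 376.3 CPM with DMSO and at 364.0, 378.7, 354.1 and 364.6 CPM with torin1 in WT. Its log2 fold change was -0.09 in both genotypes (SE 0.066 each, edgeR adjusted p 0.275 in WT, 0.228 in AMPK KO), with a 95% interval of -0.22 to 0.05 for WT cells and of -0.23 to 0.04 for AMPK KO cells.

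The change with torin1 was smaller in AMPK KO than in WT for 3 of the 10 genes by the test of the interaction. The difference of log2 fold changes, AMPK KO minus WT, was 0.32 for Mdm2 (SE 0.056, adjusted p 0.000823 in edgeR), 0.47 for Ccng1 (SE 0.11, adjusted p 0.00664 in edgeR) and 0.37 for Zmat3 (SE 0.09, adjusted p 0.0117 in edgeR). Called in this direction were 4.15% of all genes, and 2.92% in the other, where there was no member. For Cdkn1a the difference was 0.68 (SE 0.31, adjusted p 0.174 in edgeR), and with passage as a block it was 0.64 (adjusted p 0.00652 in edgeR). Trp53inp1 also had a difference of 0.68 (SE 0.3, adjusted p 0.169 in edgeR), which became 0.69 (adjusted p 0.0017 in edgeR) with that block. The calls of Mdm2 and Zmat3 were lost without any of WT torin1 replicate 3 or 1, AMPK KO DMSO replicate 4 or AMPK KO torin1 replicate 2 or 4, and that of Mdm2 also without AMPK KO DMSO replicate 3, with values from 0.24 to 0.30, whereas that of Ccng1 remained with each library left out. Gained were Bax without WT torin1 replicate 4 (0.27) and Phlda3 without WT torin1 replicate 2 (0.30). Among all genes 58.7% of calls were higher, 48.5% with DESeq2 size factors and 42.1% with library size alone, while 3 members stayed higher under both. Of the 15828 genes tested, 657 were called higher before, and 517 and 418 with these scalings.

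**Figure D2:**
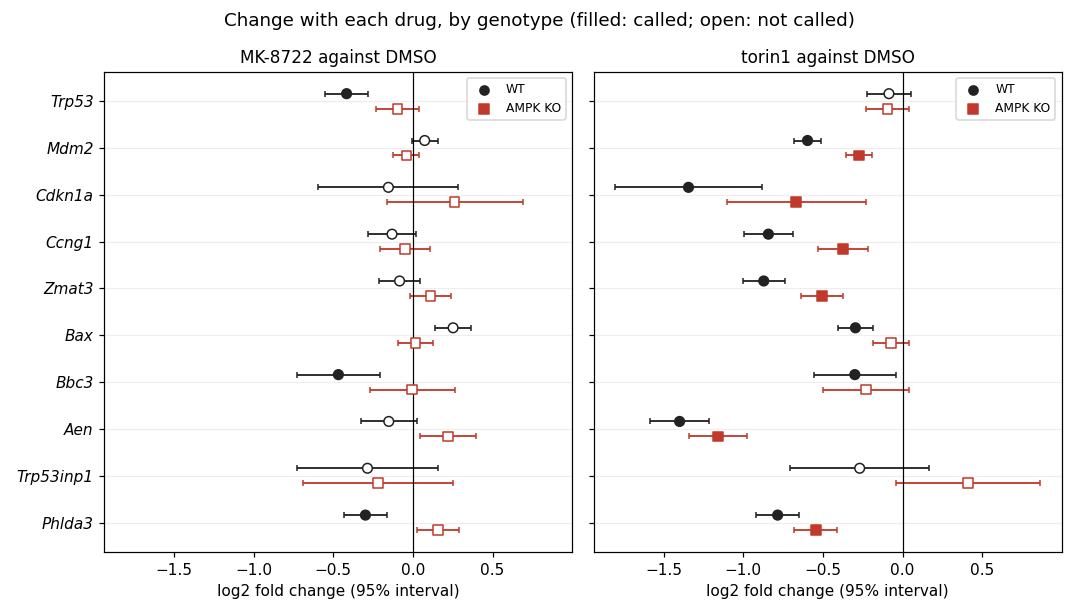
Log2 fold change of each gene (horizontal axes, with 95% intervals) for MK-8722 and for torin1 against DMSO, with circles for WT and squares for AMPK KO, filled where the gene was called. With torin1, 8 filled circles and 6 filled squares lie below 0, and the 3 filled markers with MK-8722 all belong to WT.

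Other genes known as p53 targets were called in both directions with torin1, as were all genes. Of 29 further targets tested, 9 were higher and 10 lower in WT, against 26.6% and 21.1% of all genes, with a median log2 fold change of -0.03. In AMPK KO 7 were higher and 9 lower, against 25.9% and 17.6%, with a median of 0.09. Among the further targets called with a mean of at least 5 CPM, the largest change was in Sesn2, a stress-induced inhibitor of MTORC1 signalling, with a log2 fold change of -3.25 (SE 0.14) in WT and -2.41 (SE 0.13) in AMPK KO. Its mean level in WT fell from 89.3 to 9.42 CPM, and in AMPK KO it fell from 104 to 19.7 CPM (n = 4). Gdf15, a secreted stress protein gene below that mean and singled out after its values were seen, stood in AMPK KO at 2.20 ± 0.744 CPM with DMSO (37 to 99 counts) and 0.0833 ± 0.0286 CPM with torin1 (2 to 4 counts). Gadd45a, which binds PCNA and stress kinases, had log2 fold changes of -1.46 and -1.19, and Tigar, a phosphatase of the glycolytic pathway, of -0.95 in WT. In contrast, the DNA repair gene Ddb2 was higher, with log2 fold changes of 1.19 in WT and 1.13 in AMPK KO. Among 17 regulators of p53 tested, 5 were higher and 3 lower in WT and 5 higher and 2 lower in AMPK KO, beside the same shares of all genes. Hipk2, a kinase of p53, was lower in both genotypes (log2 fold changes -0.85 and -0.60), while the damage kinase Atr (0.71 and 0.80) and the deacetylase Sirt1 (0.56 and 0.53) were higher. Of 12 cell cycle genes that p21 is known to hold down, 3 were lower in WT, Aurka, Ccnb1 and Cdc25c, and 0 were higher, and in AMPK KO 3 were higher, Top2a, Mki67 and Ccnb2, and 0 were lower. In either genotype the count of 3 of 12 is near the share of all genes called in that direction, 21.1% lower in WT and 25.9% higher in AMPK KO. In the torin1 interaction 6 further targets, 5 cell cycle genes and 0 regulators were higher by edgeR, and none of these lists had a gene called lower, against 4.15% and 2.92% of all genes. The values were 0.84 for Sesn2, 0.56 for Btg2, 0.38 for Plk1 and 0.33 for Ccnb1, and all 12 cell cycle genes were above 0, with a median of 0.27 beside 0.01 over all genes.

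With MK-8722, which was set against the same DMSO libraries as torin1, Trp53 and a pair of its known targets fell in WT, and no member was called in AMPK KO. In WT 3 of the 10 genes were lower and 0 higher, against 5.66% of all genes called lower and 10.0% called higher. In AMPK KO 0 were called, by edgeR and also by DESeq2, against 0.695% of all genes lower and 0.866% higher by edgeR. The lowest unadjusted edgeR p-values of members there were 0.0155 for Aen and 0.0237 for Phlda3, both with values above 0. Adjusted over all genes tested, these edgeR p-values were 0.171 and 0.211. With library size alone, 45.1% of the calls among all genes in AMPK KO were higher, against 55.5% before. The median log2 fold change of the 10 genes was -0.15 in WT and 0.01 in AMPK KO. The summed level of 4 endothelial markers was 4.44 to 8.6 CPM with MK-8722 in WT and 0.878 to 1.28 CPM with DMSO, most of it Kdr at up to 8.41 CPM, while Cdh5 was at 0 in 6 libraries. That of 4 blood markers was 2.78 to 4.13 CPM against 1.79 to 2.41 CPM. Whether these markers came from other cells or from the fibroblasts was not tested, nor was their part in the changes.

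Trp53 with MK-8722 in WT was at 343.8, 276.2, 271.0 and 270.0 CPM from passage 12 to 15, below each of the 4 DMSO libraries at 376.3 to 404.6 CPM. Its log2 fold change was -0.42 (SE 0.066, adjusted p 3.75e-05 in edgeR). In AMPK KO, where it was at 341.6 to 385.9 CPM with MK-8722 and 346.7 to 416.0 CPM with DMSO, the log2 fold change was -0.10 (SE 0.066, adjusted p 0.498 in edgeR). The difference between the genotypes was 0.32 (SE 0.093, adjusted p 0.0198 in edgeR), a call that was lost without WT MK-8722 replicate 4 or 3, AMPK KO DMSO replicate 3 or AMPK KO MK-8722 replicate 3, at 0.27 to 0.29 with adjusted p-values up to 0.0526. The 3 later WT passages with MK-8722, at 270.0 to 276.2 CPM, were the lowest of the 24 libraries.

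Phlda3, the AKT inhibitor, fell in WT from 69.7, 66.7, 67.4 and 63.6 CPM to 55.9, 54.7, 53.9 and 52.9 CPM without overlap. Its log2 fold change was -0.30 in WT (SE 0.064, adjusted p 0.00101 in edgeR) and 0.16 in AMPK KO (SE 0.064, adjusted p 0.211 in edgeR), and the difference of 0.45 was called (SE 0.091, adjusted p 0.00118 in edgeR). Bbc3, the gene of PUMA, fell from 14.4, 13.5, 12.0 and 10.3 CPM to 11.7, 8.41, 8.35 and 7.93 CPM, with a log2 fold change of -0.47 (SE 0.13, adjusted p 0.00709 in edgeR) and an overlap made by the passage 12 library. In AMPK KO its value was -0.00 (SE 0.13), and the difference of 0.46 between the genotypes was not called (adjusted p 0.0813 in edgeR), although it was with passage as a block (0.47, adjusted p 0.0258 in edgeR). Aen was called in neither genotype, at -0.15 in WT and 0.22 in AMPK KO, but the difference of 0.37 was (SE 0.12, adjusted p 0.034 in edgeR), and 7 of the 16 fits without a library lost that call, with values from 0.32 to 0.36 and adjusted p-values up to 0.0835. These libraries were WT DMSO replicate 4, WT MK-8722 replicates 4 and 3, AMPK KO DMSO replicates 3 and 4 and AMPK KO MK-8722 replicates 3 and 1. Called higher in this interaction were 5.12% of all genes, and 7.66% lower, where there was no member. The blocked fit also called Cdkn1a, whose difference of 0.42 had an edgeR adjusted p of 0.384 without the block and 0.0378 with it. Without WT MK-8722 replicate 2, Cdkn1a (0.74) and Bbc3 (0.60) were called, and Bbc3 also without WT DMSO replicate 3 (0.56) or AMPK KO DMSO replicate 4 (0.55).

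Bax moved the other way. It was at 88.2, 80.6, 84.2 and 79.5 CPM with DMSO in WT and at 106.0, 101.9, 95.9 and 92.1 CPM with MK-8722, above all DMSO libraries. Its log2 fold change of 0.25 (SE 0.054, adjusted p 0.000943 in edgeR) is a fold change of 1.19, just under the fold threshold, and was 0.28 and called without WT DMSO replicate 4 or WT MK-8722 replicate 3. In AMPK KO its log2 fold change was 0.02 (SE 0.054), and the difference of -0.24 had an edgeR adjusted p of 0.0348, also under the fold threshold. That difference was -0.27 and called without WT DMSO replicate 4, WT MK-8722 replicate 3 or AMPK KO MK-8722 replicate 3. Mdm2, Cdkn1a, Ccng1, Zmat3 and Trp53inp1 were not called with MK-8722, with log2 fold changes from -0.29 to 0.07 in WT and from -0.22 to 0.26 in AMPK KO. The value of 0.26 was that of Cdkn1a, whose MK-8722 library was above the DMSO library in each AMPK KO passage. Zmat3, at 0.11, was higher there without overlap. The shares of all genes with that order, or without overlap, were not counted. The 95% interval of Mdm2 in WT ran from -0.01 to 0.15, and that of Cdkn1a from -0.59 to 0.29. A change of Cdkn1a by the fold threshold lies within its interval, but this fit had no term for passage. From passage 12 to 15, Cdkn1a in WT was at 65.8, 34.9, 36.3 and 30.5 CPM with DMSO. With MK-8722 it was at 60.6, 31.3, 31.1 and 27.8 CPM, lower in each passage. How many of all genes held that order was not counted.

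Of the 29 further targets, 6 were higher and 3 lower with MK-8722 in WT, against 10.0% and 5.66% of all genes, and 2 were higher and 1 lower in AMPK KO, against 0.866% and 0.695%. In WT the membrane protein gene Perp rose from 14.5 to 32.7 CPM (log2 fold change 1.17, SE 0.1) and Pmaip1, which encodes the BH3-only protein NOXA, from 8.15 to 16.0 CPM (0.97, SE 0.14). Rrm2b, a ribonucleotide reductase subunit, rose by 0.52 on the log2 scale, and Sesn2 had a log2 fold change of -0.60. In AMPK KO Plk3 (0.42) and Gadd45a (0.62) were higher and Sesn1 (-0.35) lower. The interaction was called for 4 further targets, at -0.82 for Perp, -0.94 for Pmaip1, 1.01 for Sesn2 and 0.37 for Plk2, and for the regulator Chek2 (-0.41). Among the regulators of p53, 1 was called in WT, Atr, with a log2 fold change of 0.33, and 0 in AMPK KO. None of the 12 cell cycle genes was called by edgeR with MK-8722 in either genotype, but in the interaction 3 were lower, Bub1 (-0.36), Ccnb2 (-0.33) and Ccnb1 (-0.33), against 7.66% of all genes, and 1 of 12 was above 0, with a median of -0.17.

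In AMPK KO cells with DMSO, most of the targets stood lower than in WT, while Trp53 was not called. With DMSO 6 of the 10 genes were lower and 0 higher, against 26.0% of all genes called lower and 30.9% called higher. With MK-8722 5 were lower and 2 higher, against 27.5% and 31.4%, and with torin1 2 were lower and 1 higher, against 23.6% and 31.0%. The median log2 fold change of the 10 genes with DMSO was -0.38 beside 0.02 over all genes. Library size alone moved the median of all genes by 0.14, 0.114 and 0.102 with DMSO, MK-8722 and torin1. It raised the share of calls that were higher from 54.3% to 67.4% with DMSO and from 56.7% to 66.8% with torin1. In the same order of treatments it left 5, 4 and 2 members lower. Of the 15828 genes tested, it left 2939, 3468 and 2903 lower, against 4116, 4353 and 3742 before. All 8 fibroblast markers were counted in every library, and their summed level was 7310 to 12000 CPM in the WT groups and 2510 to 3430 CPM in the AMPK KO groups, and with DMSO the sums of the epithelial (1.4 to 2.41 and 3.21 to 4.79 CPM), endothelial (0.878 to 1.28 and 1.57 to 2.1 CPM) and muscle markers (0.722 to 0.805 and 1.38 to 1.9 CPM) were higher in AMPK KO without overlap. The part of these differences was not tested.

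**Figure D3:**
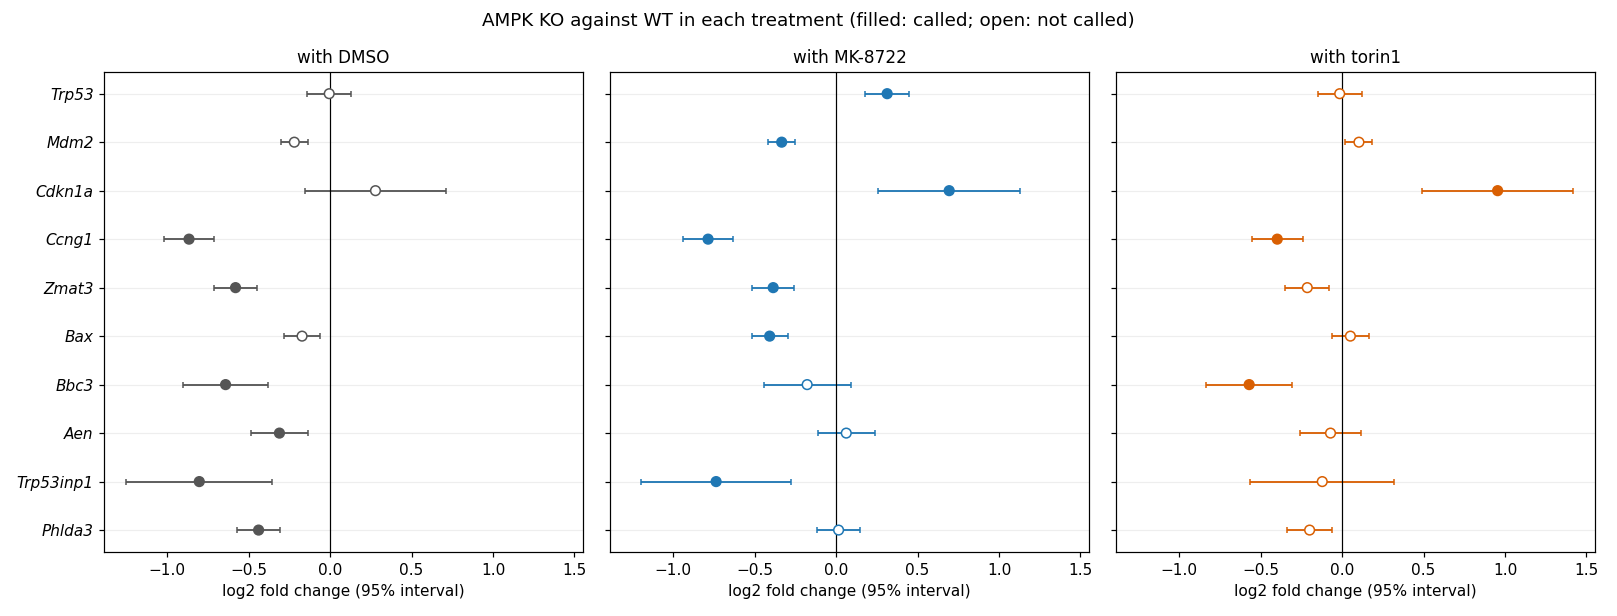
Log2 fold change of AMPK KO against WT for each gene (horizontal axes, with 95% intervals), with DMSO, MK-8722 and torin1 in separate panels and filled points where the gene was called. Ccng1 is filled and below 0 in all 3 panels, and Cdkn1a is filled and above 0 with MK-8722 and torin1.

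Ccng1 was lower in all 3 treatments. With DMSO it was at 59.0, 53.6, 48.9 and 48.5 CPM in AMPK KO, against 86.7 to 111.9 CPM in WT, a log2 fold change of -0.87 (SE 0.075, adjusted p 2.96e-10 in edgeR). The log2 fold change was -0.79 with MK-8722 and -0.40 with torin1, without overlap in any treatment. Bbc3 was lower with DMSO, at 6.59, 7.995, 9.51 and 8.15 CPM against 10.3 to 14.4 CPM in WT (log2 fold change -0.64, SE 0.13, adjusted p 8.72e-05 in edgeR), and with torin1 (-0.57), but was not called with MK-8722 (-0.18). Zmat3 was lower with DMSO, at 34.02 to 37.0 CPM against 50.0 to 60.4 CPM (log2 fold change -0.58), and with MK-8722 (-0.39). Its value with torin1, -0.21 (adjusted p 0.00549 in edgeR), was under the fold threshold, and was -0.33 to -0.28 and called without WT torin1 replicate 3 or 1 or AMPK KO torin1 replicate 2 or 4. Trp53inp1 was lower with DMSO, at 5.58, 3.17, 3.66 and 2.68 CPM against 8.67, 6.22, 6.002 and 5.48 CPM in WT, groups that overlapped through the passage 16 library (log2 fold change -0.80, SE 0.22, adjusted p 0.00216 in edgeR). With MK-8722 it was -0.74 and with torin1 -0.12, not called.

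Phlda3 and Aen were called lower in AMPK KO with DMSO and in neither drug. Phlda3 was at 46.4 to 52.0 CPM against 63.6 to 69.7 CPM in WT (log2 fold change -0.44, SE 0.064, adjusted p 1.66e-06 in edgeR) and Aen at 46.1 to 56.8 CPM against 58.9 to 70.2 CPM (-0.31, SE 0.085, adjusted p 0.0023 in edgeR). The call of Aen was lost with library size alone, at -0.17 (adjusted p 0.0515 in edgeR), and with a stricter filter on low counts, at -0.26, under the fold threshold. With MK-8722 the log2 fold changes were 0.01 for Phlda3 and 0.06 for Aen, and with torin1 -0.20 and -0.07. Without WT torin1 replicate 3 or 1 or AMPK KO torin1 replicate 2 or 4, Phlda3 was called with torin1 at -0.35 to -0.27. Mdm2 was below WT without overlap with DMSO, but its log2 fold change of -0.22 (SE 0.039, adjusted p 2.71e-05 in edgeR) is under the fold threshold. Without WT DMSO replicate 2, 1 or 3 it was called, at -0.28. With MK-8722 it was called at -0.33 and with torin1 its value was 0.10, of opposite sign. Bax followed the same order, with -0.17 for DMSO, -0.41 for MK-8722, which was called, and 0.05 for torin1.

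Cdkn1a was the only member that was called higher in AMPK KO in more than a single treatment. With torin1 it was at 28.6 to 36.2 CPM in AMPK KO and 14.1 to 19.3 CPM in WT, without overlap (log2 fold change 0.95, SE 0.22, adjusted p 0.000588 in edgeR). With MK-8722 it was at 69.1, 60.9, 60.0 and 54.2 CPM against 60.6, 31.3, 31.1 and 27.8 CPM in WT (0.69, SE 0.21, adjusted p 0.00518 in edgeR), where the passage 12 library of WT made the overlap. With DMSO the log2 fold change of 0.28 (SE 0.21, adjusted p 0.245 in edgeR) was not called, but was 0.57 (adjusted p 0.00914 in edgeR) without WT DMSO replicate 4, the passage 12 library. The level of Trp53 with DMSO was 387.6 ± 12.1 CPM for WT against 386.1 ± 28.8 CPM for AMPK KO (SD, 4 libraries each), a log2 fold change of -0.01 with a 95% interval of -0.14 to 0.13. It was higher in AMPK KO with MK-8722 (log2 fold change 0.31, SE 0.066, adjusted p 0.000174 in edgeR) and not called with torin1 (-0.02).

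The further targets were called in both directions between the genotypes, as were all genes. With DMSO 8 of 29 were higher and 11 lower in AMPK KO, against 30.9% and 26.0% of all genes, with a median log2 fold change of -0.01. Perp was nearly absent from AMPK KO, at 0.920 CPM against 14.5 CPM in WT (log2 fold change -3.98, SE 0.14), and the kinase gene Plk2 was lower (-0.95), while Ak1, adenylate kinase 1, was higher (1.505) and Rrm2b too (0.94). With MK-8722 9 were higher and 11 lower, against 31.4% and 27.5%, and with torin1 10 were higher and 9 lower, against 31.0% and 23.6%. Cdkn2a, whose locus encodes the inhibitor of MDM2, ARF, and the kinase inhibitor p16, was expressed in both genotypes, at 233.5 ± 10.1 CPM for WT against 182.4 ± 12.8 CPM for AMPK KO with DMSO (SD, 4 libraries each). Its log2 fold changes in AMPK KO were -0.36, -0.37 and -0.39 in the 3 treatments, and its changes with either drug were between -0.01 and 0.03. Mdm4, the partner of MDM2, lay between 52.0 and 62.2 CPM in the means of the 6 groups and was called in no comparison. The p53 relatives Trp63 and Trp73 had at most 7 and 5 counts in any library and were not tested. Beside these shares, of the 17 regulators 4 were higher and 4 lower in AMPK KO with DMSO, among them Ep300, a coactivator of p53 (0.52), and of the cell cycle genes 1 was higher, Top2a (0.28), and 0 lower. With MK-8722, 4 regulators were higher and 6 lower and 4 cell cycle genes were lower, among them Bub1 (-0.60), and with torin1 5 regulators were higher and 3 lower and 5 cell cycle genes were higher, among them Cdc20 (0.55).

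The passage labels divided some of the members further. With treatment in the model, 3 of the 10 genes differed between WT passages, Cdkn1a, Trp53inp1 and Aen, against 11.5% of all genes called. In AMPK KO 1 differed, Trp53inp1, against 7.28%. When the earliest passage was set against the mean of the 3 later ones, 2 genes were higher in WT and 0 lower, against 3.58% of all genes called higher and 4.53% called lower. In AMPK KO 1 was higher and 0 lower, against 2.88% and 1.40%. All 10 genes had a value above 0 in WT, with a median of 0.20 on the log2 scale beside 0.01 over all genes. In AMPK KO 5 of 10 were above 0, with a median of -0.02. With library size alone, 84.3% of the calls among all genes in AMPK KO were higher, against 67.3% before.

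**Figure D4:**
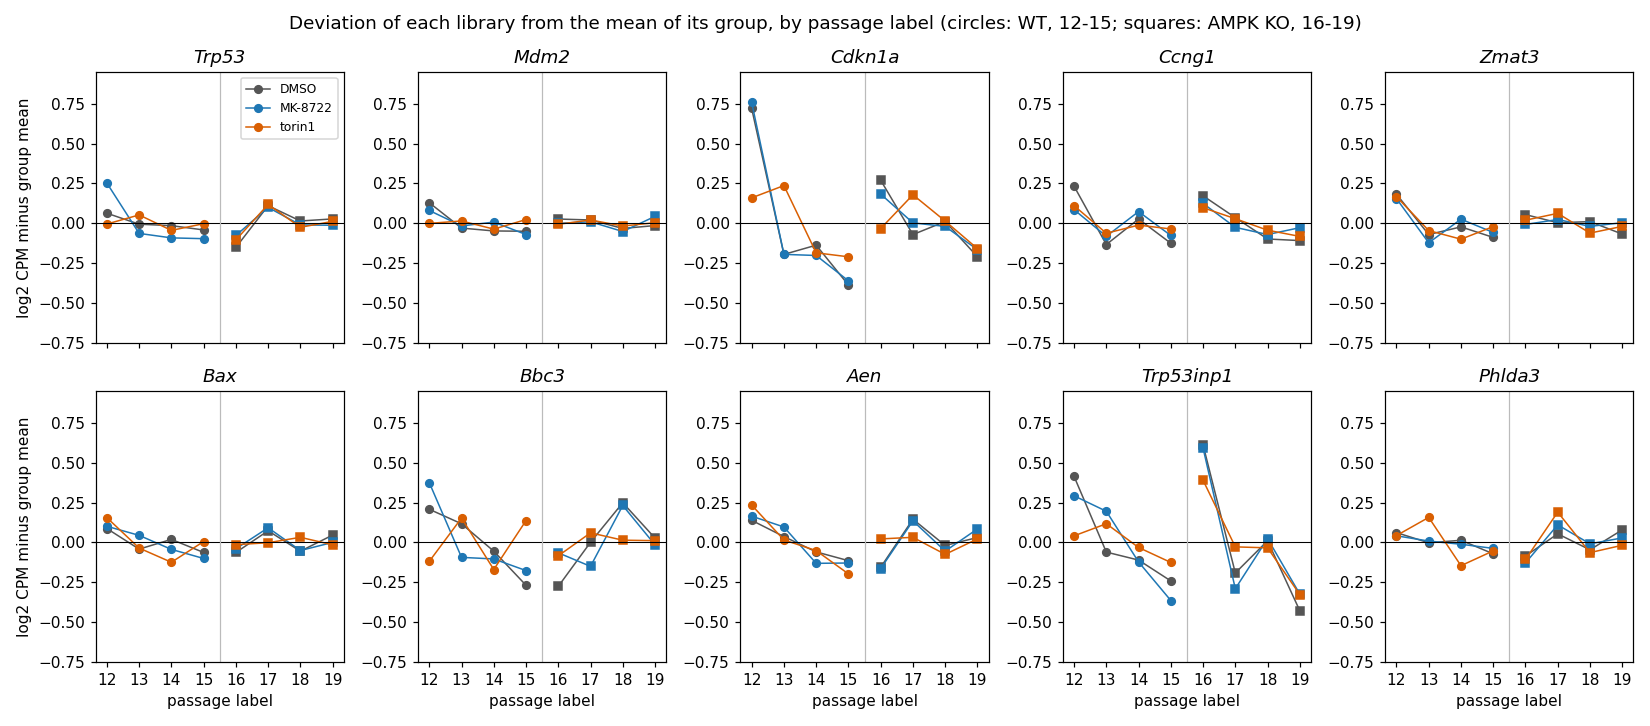
Log2 CPM of each library minus the mean of its group (vertical axes) by passage label (horizontal axes), with circles for WT, squares for AMPK KO, and grey, blue and orange for DMSO, MK-8722 and torin1. The WT lines of Cdkn1a start at the highest values of that genotype for DMSO and MK-8722, 0.96 and 1.01 above the mean of their later passages, and the torin1 line 0.21 above its own.

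Cdkn1a had the largest excess in the earliest WT passage. Averaged over the 3 treatments it was at 48.2, 28.5, 27.3 and 24.2 CPM in passages 12, 13, 14 and 15. Passage 12 exceeded the later passages by 0.79 on the log2 scale (SE 0.099, adjusted p 1.25e-05 in edgeR). Within treatments the excess was 0.96 with DMSO and 1.01 with MK-8722, where the passage 12 library was above all 3 others. With torin1 it was 0.21, and the passage 13 library at 19.3 CPM exceeded that of passage 12 at 18.3 CPM. In AMPK KO passage 16 exceeded the later ones by 0.20 (SE 0.095, adjusted p 0.175 in edgeR), with 0.36 for DMSO, 0.24 for MK-8722 and -0.04 for torin1. Without the torin1 libraries of both genotypes the value in AMPK KO was 0.30 and was called (adjusted p 8.62e-05 in edgeR). The difference between the genotypes was 0.59 (SE 0.14, adjusted p 0.00804 in edgeR), with an adjusted p of 0.0576 without WT DMSO replicate 4, 0.161 without the DMSO libraries and 0.181 without the MK-8722 libraries (edgeR).

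Averaged over the 3 treatments, Trp53inp1 was higher in the earliest passage of both genotypes. In WT it averaged 6.95, 6.09, 5.41 and 4.87 CPM from passage 12 to 15, and in AMPK KO 5.62, 3.53, 3.90 and 3.04 CPM from passage 16 to 19. The excess of the earliest passage was 0.34 in WT (SE 0.089, adjusted p 0.0087 in edgeR) and 0.71 in AMPK KO (SE 0.093, adjusted p 9.31e-05 in edgeR), where it held in each of the 3 treatments. With torin1 in WT it was 0.06, and the passage 13 library at 5.93 CPM exceeded that of passage 12 at 5.63 CPM. The WT call was lost without WT DMSO replicate 4 or WT MK-8722 replicate 2, both of passage 12, with values of 0.22 and 0.32. The test of any difference between WT passages lost Trp53inp1 without WT DMSO replicate 4 (0.38) or WT MK-8722 replicate 3 (0.43). The difference between genotypes, -0.36, was not called (adjusted p 0.071 in edgeR), but was without WT DMSO replicate 4 or 2 or AMPK KO torin1 replicate 1 or 2, at -0.49 to -0.40.

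Aen and Trp53 had values of opposite sign in the genotypes. Aen averaged 54.2, 50.3, 45.5 and 44.1 CPM over the WT passages, and its passage 12 library was the highest in each treatment, an excess of 0.23 (SE 0.041, adjusted p 0.000444 in edgeR) that is under the fold threshold. In AMPK KO the value of passage 16 was -0.15 (SE 0.042, adjusted p 0.028 in edgeR), also under it, and the difference of 0.38 was called (SE 0.059, adjusted p 0.000288 in edgeR). Trp53 had values of 0.14 in WT and -0.15 in AMPK KO, with a called difference of 0.29 (SE 0.057, adjusted p 0.00223 in edgeR) that dropped under the fold threshold without WT MK-8722 replicate 2 (0.19) or AMPK KO DMSO replicate 3 (0.26). In AMPK KO the Trp53 level of passage 16 was the lowest in all 3 treatments. Called higher in this difference were 3.58% of all genes, and 3.81% lower, where there was no member. With library size alone, 29.6% of those calls were higher against 48.4% before, Trp53 was not called and Trp53inp1 was called lower at -0.42.

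Ccng1, Zmat3 and Bax had WT excesses of 0.19, 0.22 and 0.15 with adjusted p-values of 0.000636, 9.82e-05 and 0.00552 by edgeR, all under the fold threshold. Their passage 12 libraries were above all later ones in each of the 3 treatments, and the share of all genes with that order was not counted. Mdm2 (0.10) and Phlda3 (0.06) had the smallest WT values. Bbc3 had 0.21 (adjusted p 0.141 in edgeR), made of 0.28 with DMSO, 0.50 with MK-8722 and -0.16 with torin1. Without WT torin1 replicate 4 it was 0.38 and called. In AMPK KO only Ccng1 among these 6 was above its later passages in every treatment, by 0.18 (SE 0.037, adjusted p 0.00453 in edgeR).

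Of the 29 further targets, 6 were higher and 1 lower in the earliest WT passage, with a median of 0.12, against 3.58% and 4.53% of all genes. In AMPK KO 1 was higher, Ddb2 (0.31), and 1 lower, Ak1 (-0.29), against 2.88% and 1.40%. In WT the largest called values at a mean of at least 5 CPM were in Gadd45a (0.50), Ephx1, an epoxide hydrolase (0.41), Pmaip1 (0.41) and Sesn2 (0.31). Plk3 (0.38) and Gadd45a (0.43) were among the 3 targets whose excess was higher in WT than in AMPK KO, against 2 for which it was lower, Sesn1 (-0.30) among them. For the test of any difference between passages, 10 of 29 further targets were called in WT, with 3 of 17 regulators, Chek1, Atr and Atm, and 1 of 12 cell cycle genes, Cdc25c, against 11.5% of all genes. In AMPK KO 4 further targets and none of the other lists were called by edgeR, against 7.28%. None of the regulators and none of the cell cycle genes was called in the earliest passage of either genotype. The median of the cell cycle genes was -0.10 in WT, with 2 of 12 above 0, and -0.04 in AMPK KO.

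The transcript shares were described for Trp53 and Aen. The Trp53 transcript Trp53-201 held 43.2% to 45.7% and Trp53-203 32.2% to 33.4% of the gene's TPM in the 6 groups. In Aen the shares stood apart by genotype. Aen-201, its main protein-coding transcript, held 55.8% ± 3.49 of the gene's TPM in WT and 72.4% ± 2.47 in AMPK KO with DMSO (SD, n = 4 each). The short non-coding transcript Aen-206, of 393 bases, held 14.5% ± 0.755 in WT with DMSO, 10.5% ± 1.67 with MK-8722 and 14.5% ± 1.46 with torin1, and was listed at 0 in the AMPK KO groups. Its mean estimated counts per library were only 35.2, 20.7 and 15.6 in these WT groups, beside 1015 for Aen-201 in WT with DMSO. TPM divides counts by length, so a short transcript holds a larger share of TPM than of counts. These shares are estimates of how reads divide between overlapping transcripts, and no test was made.

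The genes whose pattern over the 24 libraries was nearest to that of Cdkn1a were Slc38a1, Cebpg, Pdxp, Tars and Neto2. The measure was the root mean square difference of centred log2 CPM, over 10550 genes, and it was 0.244, 0.249, 0.262, 0.266 and 0.271, beside a spread of Cdkn1a itself of 0.676 (SD). None of the other 9 members was among these 5 genes. A list of 5 out of 10550 genes cannot tell how near the members lie to Cdkn1a, and their distances were not recorded.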

How the data were processed

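Poly(A) RNA of 24 MEF libraries was sequenced by the authors, aligned with STAR to GRCm38 and quantified with Salmon. They deposited estimated counts per gene, estimated counts, TPM and effective lengths per transcript. Their workflow was set to use unique molecular identifiers, per the methods of the study.

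Genes were filtered with filterByExpr, counts were rounded and scaled by TMM, and 6 group means were fitted with edgeR 4.0.16 in R 4.3.3 (quasi-likelihood test, Benjamini-Hochberg over 15828 genes, adjusted p under 0.05 and fold change of at least 1.2). The labels give one batch for the whole series, and the model had no batch term. Passage was added within genotype for the passage comparisons. Plotted log2 CPM had a prior count of 2. TPM was summed over transcripts to compare genes. Intervals are at 95%.

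The members, the comparisons and the lists were chosen with earlier results of these data known. All 10 members are named in each comparison. Of each further list, at most 4 called genes with the largest changes and a mean of at least 5 CPM are eligible to be named, and Mdm4, Cdkn2a, Trp63 and Trp73 are named whatever their values. The fits were tested on simulated counts. Alternatives were DESeq2 1.42.0, other scalings, filters and thresholds, blocks, and leaving libraries out.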

Additional observations from a re-analysis of the deposited data

Results flagged for a closer look

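Of 60 sets of 4 libraries (10 genes in 6 groups), 6 held a library far from the other 3, and chance alone marks about 1 in 20 such sets. In WT with DMSO, replicate 4 stood at 65.8 CPM for Cdkn1a, above the others at 30.5 to 36.3 CPM, and at 88.1 CPM for Mdm2, above 77.9 to 79 CPM. In WT with MK-8722, replicate 2 stood at 344 CPM for Trp53 against 270 to 276 CPM, at 60.6 CPM for Cdkn1a against 27.8 to 31.3 CPM and at 11.7 CPM for Bbc3 against 7.93 to 8.41 CPM. Both libraries carry passage label 12. In AMPK KO with torin1, replicate 3, of passage 18, was low for Aen at 21.8 CPM against 23.4 to 23.5 CPM.

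In 9 cases an effect on a member differed between the genotypes by the edgeR test of the difference itself. With MK-8722 the log2 difference, AMPK KO minus WT, was 0.319 for Trp53, 0.454 for Phlda3 and 0.373 for Aen. With torin1 it was 0.323 for Mdm2, 0.468 for Ccng1 and 0.367 for Zmat3. Of the earliest against the later passages the log2 difference, WT minus AMPK KO, was 0.288 for Trp53, 0.587 for Cdkn1a and 0.379 for Aen.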

How the results depend on the processing

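Of 3510 log2 fold changes of members under 43 alternatives, 3325 kept their status, which includes values called in neither fit. Of the rest, 91 calls were lost and 94 gained, and 0 called values changed sign. The 91 losses fall among the values called in the main fit, which are only a part of the 3510. DESeq2, its size factors and unrounded counts changed no call of a member. With a fold change of at least 1.5, the members called were 0 of 3 for MK-8722 in WT, 2 of 6 for torin1 in AMPK KO, 3 of 6, 3 of 7 and 1 of 3 for genotype with DMSO, MK-8722 and torin1, 0 of 3 for either interaction, 1 for any WT passage difference, 1 for the earliest WT passage and 1 for its difference between genotypes. With adjusted p alone, 6 were called for genotype with torin1, 6 and 5 for any passage difference in WT and AMPK KO, 8 and 5 for their earliest passages and 6 for the difference. An offset for transcript length gave 5 for genotype with torin1. Only the libraries compared gave 1 for the torin1 interaction. For any passage difference, leaving out the torin1 libraries gave 5 in WT and 3 in AMPK KO, and AMPK KO had 0 without the DMSO libraries, 2 without the filter and 2 with its own libraries alone. The earliest passage gave 2 in AMPK KO without torin1 libraries and 1 in WT without DMSO or MK-8722 libraries, its difference between genotypes 1 without either and 1 as a linear slope. The cause of these changes was not tested. Shares of all genes called are not given for the alternative thresholds and fits of this section. The counts therefore compare the members only with their own calls in the main fit.

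With single libraries left out, members called ranged from 3 to 5 for genotype with torin1, 1 to 5 for the MK-8722 and 1 to 4 for the torin1 interaction, 2 to 5 and 1 to 2 for any passage difference in WT and AMPK KO, and 1 to 3 for the earliest WT passage. Leaving out both earliest passages in turn, chosen after seeing the data, left 7 members lower with torin1 in WT without passage 12 and 7 called in AMPK KO without passage 16.

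Passage as a block gave 5 members in each interaction. Replicate numbers did not pair libraries (median correlation of same-numbered deviations 0.0167 in WT and -0.00868 in AMPK KO). The replicate block changed the status of 1 of 90 values, called or not, and gained the MK-8722 interaction of Bbc3 (0.47, edgeR adjusted p = 0.039). Same-passage libraries correlated at medians of 0.102 and 0.133, not above 0.1 in every pair.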
